A study of Homo sapiens with 2 samples.

Results

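Genes of the cell surface and its surroundings that carry adhesion, matrix attachment and guidance signals were compared between a wild-type and a TMEM25-knockout library of MDA-MB-231, a human triple-negative breast cancer line. They were chosen by symbol, not by value, as every gene of the deposited table named as a cadherin, protocadherin, CELSR, nectin, claudin, integrin chain, collagen, laminin, Eph receptor, ephrin, semaphorin, plexin, ADAM or ADAMTS protease, tetraspanin, glypican or syndecan. The rule found 44 of the 2046 genes of the table. The labels give the genotypes as TAMER+/+ and TAMER-/-, taken here as TMEM25, the knockout that the series design states. TMEM25 encodes a transmembrane protein, and the question in the series title is the activation of STAT3 by EGFR monomers. Each genotype had 1 library from cells grown in DMEM with fetal bovine serum. Whether the knockout is 1 clone or a pool is not given in the sources used here.

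In all 2046 genes of the table the deposited ratio of knockout to wild type was 2 or more and the knockout value 1 or more. That each of the 44 genes was higher in the knockout library therefore follows from how the table was made and is no result of its own. What the data add is how high each gene stood, how far apart the libraries were and which members of each family are held. With 1 library per genotype there is no replicate check and no test. Intervals given with read-count folds are 95% exact counting intervals, which cover counting error only. TMEM25, EGFR and STAT3 are not analysed here, and the knockout itself was thus not checked in RNA. The 44 genes together took 49041 reads of the knockout library and 13134 of the wild-type one, which is not the depth of either. Of 16 markers of luminal breast cells, 3 were in the table and higher in the same library, with summed values of 6468 against 150.4. TFF1, a secreted trefoil peptide, accounted for most of the knockout sum at 5920 against 0.94. Most of the wild-type sum came from EPCAM, at 419.58 against 145.74. Of 12 markers of mesenchymal lines of the MDA-MB-231 kind 1, TIMP1, was listed (208.87 against 4.89). In the wild-type library TIMP1 was thus lower than EPCAM. With most markers of either kind not listed, the label of the line was not tested. Of the endothelial, neural and basal markers, 1 of 8, 2 of 8 and 1 of 10 were listed, with summed values of 4.73 against 0.33, 81.01 against 15.71 and 159.55 against 69.09, and of the fibroblast and leukocyte markers 0 of 10 and 0 of 10. The part of these markers in the values below was not tested. In bulk RNA, fewer cells of a type and less RNA per cell cannot be told apart.

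Cells attach to each other through cadherins, nectins and claudins, and to the matrix through integrins and heparan sulfate proteoglycans. Integrins are pairs of an alpha and a beta chain, and the pairing decides which matrix protein is bound. Eph receptors bind membrane-held ephrins on a neighbouring cell, and plexins bind semaphorins. Both systems steer axons and also act in epithelia, vessels and tumours. ADAM and ADAMTS proteases cut surface proteins and matrix.

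Promoters are shown first for gene sets whose arrangement bears on how their values are read. Of the 44 genes, 34 had a promoter window in RefSeq (GRCh38.p14), which runs from 250 bases before to 50 bases after the transcript start. COL4A5 and COL4A6, which encode chains of basement membrane collagen, lie head to head on chromosome X with RefSeq starts 380 bases apart. For COL4A6 the start nearest to COL4A5 was used. The pair is known for sharing the stretch between them as a promoter. The upstream sequences of this pair are given 5′ to 3′ on each gene's own strand (chrX:108439588-108439837, plus strand, and chrX:108439459-108439708, minus strand). Capitals mark the 121 bases that both windows hold, read from opposite strands. The 379 bases between the starts had a GC content of 48.5%, against a median of 58% over the upstream parts of all 35116 windows.
COL4A5: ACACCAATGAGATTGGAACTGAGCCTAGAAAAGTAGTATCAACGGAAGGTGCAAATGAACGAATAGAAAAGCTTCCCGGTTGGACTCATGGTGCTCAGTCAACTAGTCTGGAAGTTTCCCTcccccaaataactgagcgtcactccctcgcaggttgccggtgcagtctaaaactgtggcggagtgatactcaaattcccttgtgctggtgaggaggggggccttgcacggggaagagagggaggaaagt
COL4A6: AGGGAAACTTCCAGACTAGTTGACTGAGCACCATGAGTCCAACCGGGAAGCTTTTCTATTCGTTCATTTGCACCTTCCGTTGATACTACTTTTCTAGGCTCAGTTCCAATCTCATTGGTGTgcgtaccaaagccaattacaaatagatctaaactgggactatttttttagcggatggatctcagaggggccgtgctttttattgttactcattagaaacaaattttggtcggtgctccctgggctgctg

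The alpha protocadherins are made from a cluster on chromosome 5 in which each gene has its own promoter and first exon, spliced to constant exons that all of them share. Such promoters are known for a conserved element with the core CGCT. In 3 of these genes the longest stretch common to the upstream windows was GATGTCGCT, shown in capitals with 20 bases on each side. The genes are PCDHA6 (chr5:140827888-140827936), PCDHA10 (chr5:140855832-140855880) and PCDHA12 (chr5:140875235-140875283), all on the plus strand.
PCDHA6: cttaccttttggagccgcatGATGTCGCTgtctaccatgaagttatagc
PCDHA10: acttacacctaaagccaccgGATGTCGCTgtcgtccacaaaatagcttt
PCDHA12: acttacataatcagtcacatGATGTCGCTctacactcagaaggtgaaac
On either strand the stretch occurs in the upstream windows of 9 of 13 alpha protocadherin genes with a window, and in 30 of all 35116 windows (0.0854%). It is not in that of PCDHAC2.

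Because the series concerns STAT3, the windows were also searched for TTCNNNGAA, the core that STAT proteins are known to bind, which reads the same on both strands. It was found in 3 of the 34 genes with a window (8.82%), against 9.38% of all 27305 genes with a window and 9.13% of the 1610 such genes of the table. The genes were EPHA3, SEMA3E and PCDHA12, and in PCDHA12 the match lies after the start. The last 60 bases before the start are shown for EPHA3 (chr3:89107561-89107620, plus strand), with the match at positions -35 to -27, and for SEMA3E (chr7:83649140-83649199, minus strand), with the match at -27 to -19, counted from the transcript start at 0. Capitals mark the match. These positions are counted from the RefSeq starts. In the GENCODE annotation used for gene positions, EPHA3 starts at 89107524. Under that annotation the bases shown for EPHA3, with the match, lie inside the gene. SEMA3E starts there at 83649113, so its bases and match still lie before the start.
EPHA3: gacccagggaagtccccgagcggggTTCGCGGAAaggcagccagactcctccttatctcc
SEMA3E: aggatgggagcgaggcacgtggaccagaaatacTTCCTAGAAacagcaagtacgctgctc
A match of letters in a window is a description and no evidence of binding.

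Across the 44 genes, levels were lower than in the rest of the table and the distance between libraries was like that of the table. The median expression value, a deposited level scaled for gene length whose unit is not named, was 4.99 in the knockout and 0.925 in the wild-type library, against 12.12 and 2.91 over all genes of the table. The wild-type value was under 1 in 24 of 44 genes (54.5%), against 32.9% of the table. Under 10 wild-type reads were found in 4 of 44 genes (9.09%), against 15.7% of the table. Unlike the value, a read count is not scaled for gene length, so this does not show that few were silent. The median ratio of the deposited values was 3.74, against 3.33 for the table. On the log2(value + 1) scale, where 1 is added to each value before the ratio is formed and low genes are pulled toward 0, the median was 1.26 against 1.33, while the median log2 of the read-count fold was 1.95 against 1.71. On this scale 32 of 44 genes (72.7%) were at least 2-fold higher, against 80.6% of the table, and 8 (18.2%) were at least 4-fold higher, against 21.3%. The lower limit of the read-count interval was above 2 in 35 genes (79.5%), against 76.5%. These shares lie near the background and are no result about these genes as a set. With a pseudocount of 5 in place of 1 the count of 32 was 12, and after centring on the median of the table it was 4. The shares of the table under these settings are not given here, so these counts cannot be set against a background.

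**Figure D1:**
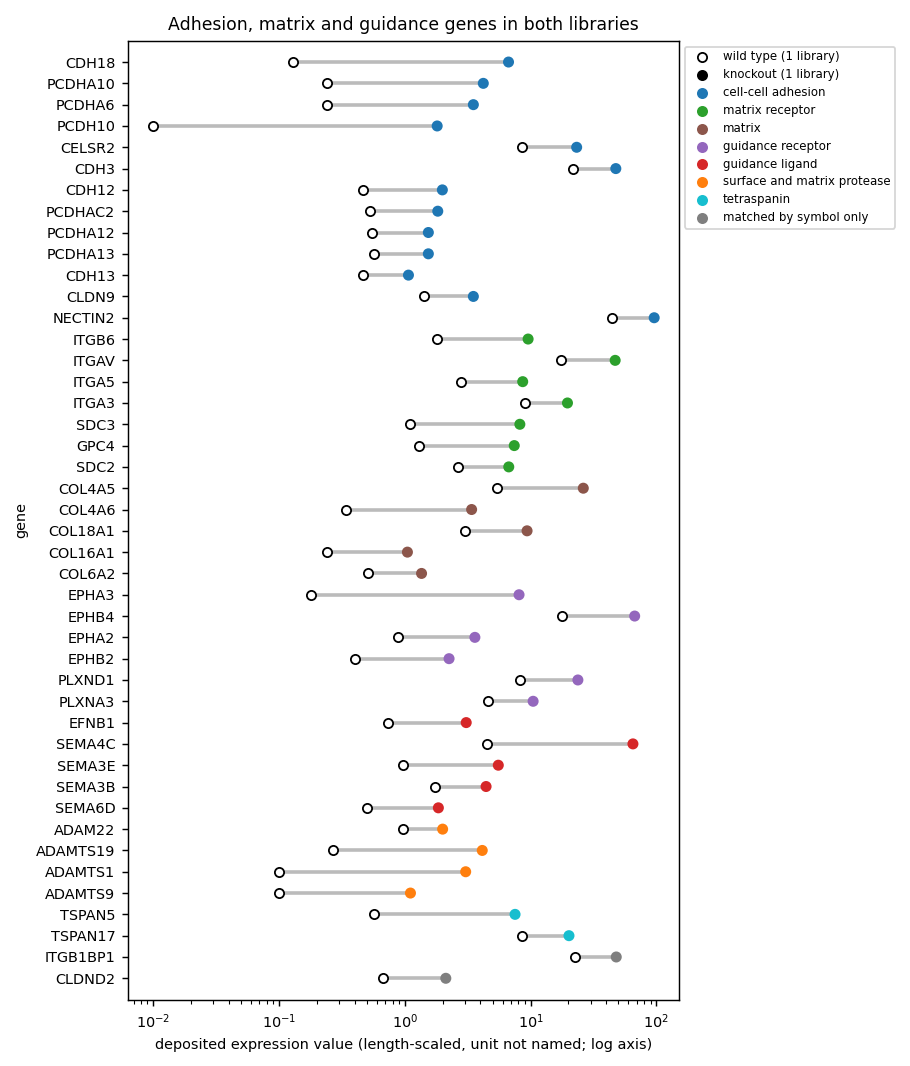
Deposited expression value (log axis) of each of the 44 genes in the wild-type library (open circles) and the knockout library (filled circles, coloured by role), 1 library each. Knockout values run from 1.05 (COL16A1) to 96.08 (NECTIN2), and the lowest wild-type value is 0.01 (PCDH10).

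Among genes of cell-cell adhesion, 13 were listed, with a median log2 ratio of 1.09. On the log2(value + 1) scale 8 of them were at least 2-fold higher, against 80.6% of the table. NECTIN2, an immunoglobulin-type adhesion molecule that is also a ligand of lymphocyte receptors, had the highest level of all 44 genes, at 96.08 in the knockout and 44.13 in the wild-type library (4530 and 1863 reads). Its read-count fold of 2.10 (1.99 to 2.22) was close to the limit of the table. CDH3, the P-cadherin of basal breast cells, was next in level at 47.61 against 21.86, a fold of 2.18 (2.04 to 2.32). CELSR2, a cadherin with a seven-pass membrane domain that acts in planar cell polarity, was at 23.25 against 8.62 from 4593 and 1473 reads, for a fold of 2.70 (2.54 to 2.86). These 3 genes were expressed in both libraries, apart in level from the other genes of this role, whose knockout values stayed at 6.68 or below.

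The largest differences of the cadherins were in genes close to silent in the wild-type library. CDH18, a type II cadherin known from the nervous system, was at 6.68 against 0.13, from 421.27 and 8.97 reads, a fold of 40.7 (21.1 to 89.2) and a log2 ratio of 2.76. PCDH10, a protocadherin that is often silenced in tumours, was at 1.81 against 0.01. It rested on 193 reads against 1.02, so its fold of 164 had an interval of 29.6 to 6632. CDH12, another type II cadherin, was at 1.99 against 0.47, a fold of 4.26 (2.80 to 6.71). CDH13, which is held to the membrane by a lipid anchor, was at 1.07 against 0.47, and its log2 ratio of 0.49 was the lowest of all 44 genes, at the 0.196th percentile of the table. Its interval of 1.46 to 3.61 included 2. CLDN9, the only tight junction claudin listed, was at 3.51 against 1.43, a fold of 2.46 (1.74 to 3.49). CLDN9 is close in sequence to its neighbour CLDN6, and reads that fit both may have been split between them.

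The alpha protocadherins fell into separate levels. PCDHA10 was at 4.21 against 0.24 and PCDHA6 at 3.51 against 0.24, with folds of 17.6 (10.9 to 28.999) and 15.6 (9.70 to 26.6). PCDHAC2, PCDHA12 and PCDHA13 were at 1.83 against 0.53, 1.54 against 0.55 and 1.54 against 0.57. Their folds of 3.001 (2.18 to 4.14), 2.79 (2.02 to 3.97) and 2.73 (1.97 to 3.88) did not overlap those of the first pair within counting error. In the wild-type library the level of PCDHA10 was 0.436 times that of PCDHA12, and in the knockout library 2.73 times. All 5 share the constant exons and their counts are not whole numbers, so reads of those exons were divided between them by a method not given in the sources used here. Summed over the 5 genes the counts were 1189 and 184.7, for a fold of 5.57 (4.76 to 6.53). The sum does not depend on the division among these 5, but still on that with the rest of the cluster. As each of the 5 is listed for a ratio of 2 or more, a summed fold above 2 is no result of its own. Reads given to the 10 other genes of the cluster are not analysed here.

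Receptors for the matrix were all at least 2-fold higher on the log2(value + 1) scale, 7 of 7, against 80.6% of the table. Their median log2 ratio was 1.38, and none had a wild-type value under 1. ITGAV, the alpha-v chain that binds vitronectin and the latent form of TGF-beta, had the highest level of the 4 integrin chains, at 47.05 against 17.51 (6091 and 1964 reads). Its fold was 2.68 (2.55 to 2.83). ITGB6, the epithelial beta chain that pairs with alpha-v alone, was at 9.56 against 1.82 from 816 and 134 reads. The fold of ITGB6, 5.27 (4.39 to 6.38), lay above that of its partner without overlap of the counting intervals, and the level of ITGAV was 9.62 times that of ITGB6 in the wild-type library and 4.92 times in the knockout library. ITGA5, the alpha chain of the main fibronectin receptor, was at 8.66 against 2.79, from 546 and 156 reads, a fold of 3.03 (2.53 to 3.64) and a log2 ratio of 1.35, at the 51.6th percentile of the table. ITGA3, whose pair with the beta-1 chain binds laminins, was at 19.65 against 8.96, a fold of 2.18 (1.99 to 2.38). The order of the chains by level was ITGAV, ITGA3, ITGA5 and ITGB6 in the wild-type library and ITGAV, ITGA3, ITGB6 and ITGA5 in the knockout library, where the last pair lay close together and no spread between samples can be given.

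The heparan sulfate proteoglycans lay in a narrow range of levels in the knockout library and further apart in the wild-type library. SDC3, a transmembrane syndecan known from nerve, was at 8.22 against 1.10, from 764 and 88 reads, a fold of 7.51 (6.02 to 9.48). GPC4, a glypican held by a lipid anchor, was at 7.42 against 1.30, a fold of 5.69 (4.48 to 7.32). SDC2, a syndecan of mesenchymal cells, was at 6.71 against 2.64, a fold of 2.53 (2.09 to 3.06), below the intervals of SDC3 and GPC4. On the log2(value + 1) scale SDC3, with a log2 ratio of 2.13, alone of the matrix receptors was at least 4-fold higher, while on read counts the folds of SDC3, GPC4 and ITGB6 all had intervals above 4.

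Matrix genes were represented by 5 collagens, with a median log2 ratio of 1.37. On the log2(value + 1) scale 3 of them were at least 2-fold higher, against 80.6% of the table. Laminins, the other main protein of basement membranes, gave 0 of 12 genes of the RefSeq annotation. COL4A5 was the most abundant, at 26.25 against 5.39, from 3095 and 563 reads, a fold of 4.76 (4.35 to 5.21) and a log2 ratio of 2.09. COL4A6, on the other side of the promoter sequence shown above, was at 3.40 against 0.34, from 395 and 32 reads, a fold of 10.7 (7.45 to 15.8). That both genes of the pair were higher in the knockout library follows from the table and is no result. Their folds were unequal, and the counting intervals did not overlap. The level of COL4A5 was 15.9 times that of COL4A6 in the wild-type library and 7.72 times in the knockout library. The annotation used for gene positions (GENCODE 29, GRCh38) places COL4A5 at chrX:108439844-108697545 (plus strand) and COL4A6 at chrX:108155607-108439497 (minus strand). Its starts differ from the RefSeq starts used for the sequences above, 108439838 for COL4A5 and 108439458 for COL4A6. Under GENCODE 29 the last bases of the COL4A6 sequence shown lie inside that gene.

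The remaining collagens were lower in level. COL18A1, a basement membrane collagen whose end piece is endostatin, was at 9.38 against 3.01, a fold of 2.91 (2.55 to 3.33). COL16A1, which joins other collagen fibrils, and COL6A2, a chain of the beaded filaments of type VI, were near the lower limit at 1.05 against 0.24 and 1.36 against 0.51. The fold of COL16A1 was 4.12 (2.41 to 7.65). That of COL6A2, 2.63 (1.70 to 4.18), did not exclude 2.

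**Figure D2:**
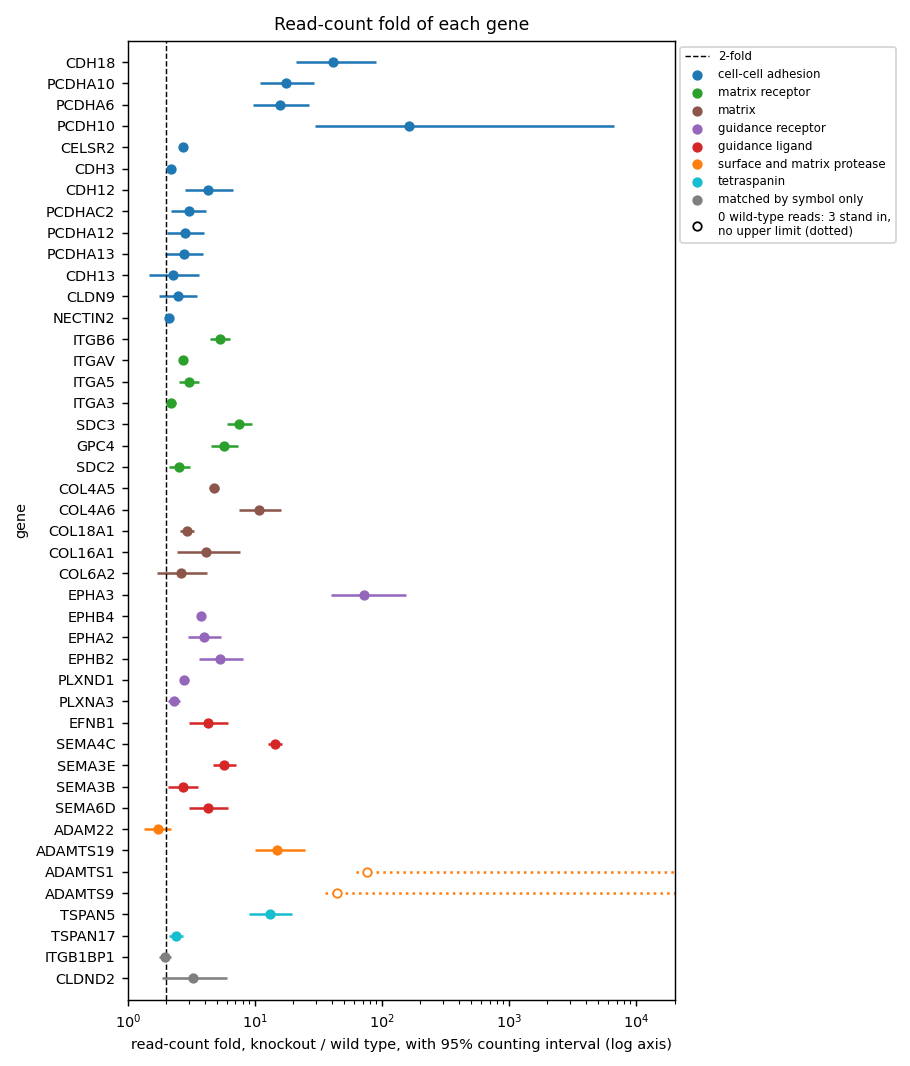
Read-count fold, knockout over wild type, of each gene on a log axis, with its 95% counting interval and a dashed line at 2. The interval lies above 2 in 35 of 44 genes, and dotted lines with open circles mark ADAMTS1 and ADAMTS9, which had 0 wild-type reads and no upper limit.

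Receptors of the guidance systems were at least 2-fold higher on the log2(value + 1) scale in 6 of 6 genes, against 80.6% of the table. Each had a read-count interval above 2, against 76.5% of the table. Their median log2 ratio was 1.36. EPHB4, an Eph receptor of veins and of breast epithelium, had the highest level, at 67.22 against 17.79 from 5228.87 and 1201 reads, and a fold of 3.77 (3.54 to 4.02). EPHA3 had the largest difference, at 8.10 against 0.18, from 842.9 and 10.14 reads. The fold of EPHA3 was 72.0 (39.5 to 153) and its log2 ratio 2.95, at the 92.6th percentile of the table, while its deposited ratio was 45. Its RefSeq upstream sequence was shown above for the TTCNNNGAA match. EPHA2, a receptor that is abundant in many carcinomas, was at 3.61 against 0.89, a fold of 3.97 (2.98 to 5.40), and EPHB2 at 2.25 against 0.40, a fold of 5.29 (3.596 to 7.99). EPHB4 thus exceeded the other 3 Eph receptors in both libraries.

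The plexins were present at moderate levels in both libraries. PLXND1, the receptor through which semaphorin 3E acts without a neuropilin, was at 23.78 against 8.22, from 2352 and 736 reads, a fold of 2.77 (2.55 to 3.01). PLXNA3, which receives class 3 semaphorins together with neuropilins, was at 10.48 against 4.63, a fold of 2.29 (2.06 to 2.55).

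Ligands of these receptors numbered 5, with a median log2 ratio of 1.24. On the log2(value + 1) scale 3 of them were at least 2-fold higher, against 80.6% of the table. All 5 had a read-count interval above 2, against 76.5% of the table. SEMA4C, a membrane-held semaphorin that binds plexin-B2, stood apart from the rest, at 65.12 against 4.47 from 3970.24 and 241.19 reads. On the log2(value + 1) scale its ratio of 3.60 was the highest of all 44 genes, at the 96.2nd percentile of the table. Its read-count fold was 14.2 (12.5 to 16.3). That rank depends on the pseudocount, since genes with few wild-type reads had larger read-count folds, such as PCDH10 (164) and EPHA3 (72.0). With a pseudocount of 0.1, CDH18 (4.88) and EPHA3 (4.87) were among the genes above SEMA4C (3.84). SEMA3E, the ligand of PLXND1, was at 5.54 against 0.97 from 687.32 and 104.35 reads, a fold of 5.70 (4.65 to 7.10), above the interval of its receptor. SEMA3B, a secreted semaphorin lost in many carcinomas, and SEMA6D, a membrane-held one, were at 4.43 against 1.73 and 1.85 against 0.50. Their folds were 2.68 (2.04 to 3.56) and 4.25 (3.01 to 6.12), with log2 ratios of 0.99 and 0.93, short of 2-fold because of the pseudocount. EFNB1, the ephrin that binds EPHB2, was at 3.08 against 0.73, a fold of 4.24 (2.99 to 6.15), which overlapped the interval of EPHB2.

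Set side by side on the log2(value + 1) scale, the medians of matrix receptors (1.38), matrix (1.37), guidance receptors (1.36) and guidance ligands (1.24) lay close to the 1.33 of the table, that of cell-cell adhesion (1.09) was below it, and those of proteases (1.41) and the 2 tetraspanins (1.79) were above. On read counts the order of the first 4 turned, with medians of 1.60 for matrix receptors, 2.04 for matrix, 1.95 for guidance receptors and 2.09 for guidance ligands, against 1.71 for the table. On this scale cell-cell adhesion was at 1.48, proteases at 4.69 and tetraspanins at 2.47. The protease median depends on the 3 reads that stood in for a wild-type count of 0 in 2 of its 4 genes. Members of a role spread widely on the log2(value + 1) scale, from 0.93 to 3.60 in the ligands and from 1.03 to 2.95 in the guidance receptors. No difference between roles was tested. The receptors that reached 2-fold on the log2(value + 1) scale were 13 of 13, beside 3 of 5 ligands, 3 of 5 collagens and 80.6% of the table. This contrast comes from the pseudocount, since on read counts, as with a pseudocount of 0.1, all of these genes were above 2-fold. On read counts 97.1% of the table was too.

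**Figure D3:**
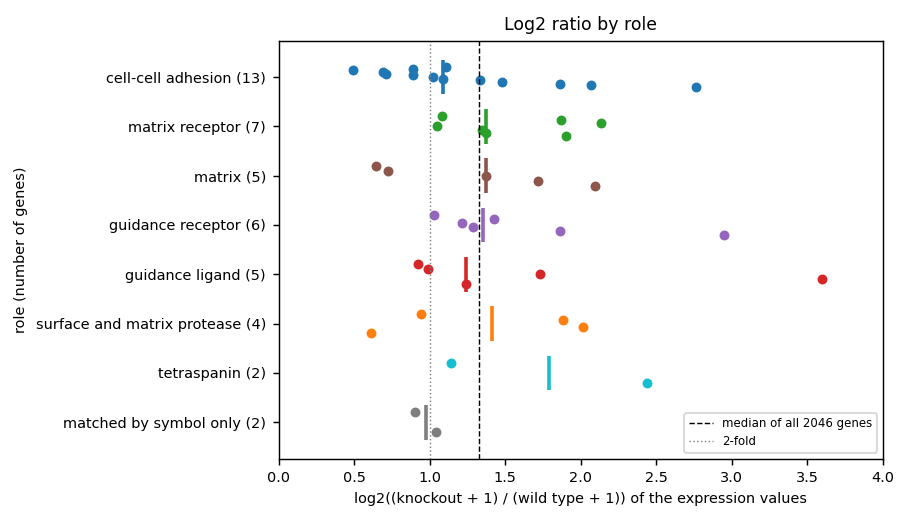
Log2((knockout + 1) / (wild type + 1)) of each gene by role, with the median of each role as a vertical bar, the median of the table (1.33) dashed and 2-fold dotted. The medians of the 4 receptor, matrix and ligand roles sit between 1.24 and 1.38, and SEMA4C and EPHA3 are the points farthest to the right in their roles.

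Of the proteases, 2 of 4 were at least 2-fold higher on the log2(value + 1) scale, against 80.6% of the table. Their median was 1.41, or 1.50 with the genes without wild-type reads placed at the value of 3 reads. All 4 had wild-type values under 1. ADAMTS1, which cuts the proteoglycans aggrecan and versican, had 265 knockout and 0 wild-type reads, a fold of 76.5 with 3 reads put in place of the 0. ADAMTS9, which also cuts them, had 154 reads against 0, a fold of 44.4 on the same floor, at a knockout value of 1.11. The lower counting limits, 61.7 for ADAMTS1 and 35.7 for ADAMTS9, were formed from the count of 0 itself. They therefore do not measure the precision of folds formed with 3 reads. The deposited wild-type value of both, 0.1, was set by the authors for a count of 0, and their deposited ratios of 30.5 and 11.1 are therefore smaller. ADAMTS19 was at 4.13 against 0.27 from 388 and 22.45 reads, a fold of 15.0 (9.94 to 24.6). ADAM22 differs from these as a receptor-like member without protease activity, at 2 against 0.96. Its read-count fold of 1.71 (1.35 to 2.19) was the lowest of all 44 genes and below its deposited ratio of 2.08.

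Both tetraspanins listed, TSPAN5 and TSPAN17, belong to the group that binds the sheddase ADAM10 and guides it to the cell surface. TSPAN5 was at 7.53 against 0.57, from 465 and 31 reads, a fold of 13.0 (9.02 to 19.3) and a log2 ratio of 2.44. TSPAN17 was at 20.20 against 8.61, a fold of 2.37 (2.10 to 2.69). The level of TSPAN17 was 15.1 times that of TSPAN5 in the wild-type library and 2.68 times in the knockout library.

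A further pair matched by symbol belongs to none of these families. ITGB1BP1, a protein that binds the tail of beta-1 integrins and restrains them, was at 47.99 against 22.74, a fold of 1.95 (1.75 to 2.17), so that it reached 2-fold on expression values (log2 ratio 1.05) and not on read counts. CLDND2, a membrane protein with a claudin-like domain, was at 2.12 against 0.67, a fold of 3.25 (1.85 to 6.04).

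Partner genes were taken from 11 lists for the same pathways, written with earlier results of these data known. Of 164 genes outside the symbol rule, 29 were in the table (17.7%), against 10.0% of all protein-coding genes. On the log2(value + 1) scale 24 of the 29 (82.8%) were at least 2-fold higher, which is near the 80.6% of the table, and 13 (44.8%) at least 4-fold, against 21.3%. Their median log2 ratio was 1.94, against 1.33. As some of these values were known when the lists were written, the shares are a description. Planar cell polarity, in which CELSR2 acts, gave 3 of 13 genes. The frizzled receptor FZD6 was at 21.19 against 0.02, from 1447 and 1 reads, a fold of 1252 (224 to 49504), and the giant cadherin FAT1 at 17.17 against 0.15, a fold of 115 (82.9 to 164). VANGL1, a membrane protein of the same system, was at 18.56 against 4.51, a fold of 4.12 (3.78 to 4.49), nearer to that of CELSR2. The semaphorin, netrin and ephrin partners gave 5 of 22, 3 of them at least 2-fold higher. NRP1, the co-receptor of SEMA3B and other class 3 semaphorins, was at 21.83 against 0.04, from 2015 and 3 reads, a fold of 581 (199 to 2821). The adaptor GRB2 was at 110.73 against 49.41 and DPYSL2, a mediator of semaphorin signals in growth cones, at 12.78 against 6.20.

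Genes that edit heparan sulfate, the sugar carried by SDC2, SDC3 and GPC4, gave 4 of 15, all at least 2-fold higher. SULF2, which removes sulfate groups outside the cell, was at 204.81 against 0.11, a fold of 1225 (701 to 2513), while the sulfotransferase HS6ST1 was at 32.61 against 7.78 and the epimerase GLCE at 17.28 against 4.82. Integrin adaptors gave 3 of 17 with ITGB1BP1, the others being BCAR1, a scaffold of focal adhesions (106.26 against 16.86), and ZYX, zyxin (60.61 against 12.15). Other matrix genes gave 2 of 21, TGFBI, which integrins bind (10.18 against 0.42), and LOXL2, which crosslinks collagen (4.30 against 0.05 from 3 wild-type reads). Collagen-modifying enzymes gave 3 of 12, namely PLOD3, P3H1 and PCOLCE at 42.63 against 9.93, 8.65 against 3.36 and 7.35 against 2.77. ADAM regulators, substrates and inhibitors gave 5 of 15, 3 at least 2-fold higher. They included the inhibitors TIMP1 (208.87 against 4.89) and TIMP3 (5.72 against 0.03 from 3 wild-type reads) and the protease-activating enzyme FURIN (18.77 against 8.96). Tetraspanins under CD names and their partners gave 1 of 10, CD9 at 245.71 against 48.36, and immunoglobulin-type adhesion genes 3 of 15. The last were EPCAM, an adhesion molecule of epithelia, at 419.58 against 145.74, and CEACAM6 and CEACAM5, close in sequence to each other, at 7.27 against 1.84 and 4.62 against 2.10. Tight junction partners gave 1 of 13 symbols, the polarity protein PARD6B at 55.34 against 12.04. Adherens junction and desmosome partners gave 0 of 12, and the members not listed are not analysed here.

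**Figure D4:**
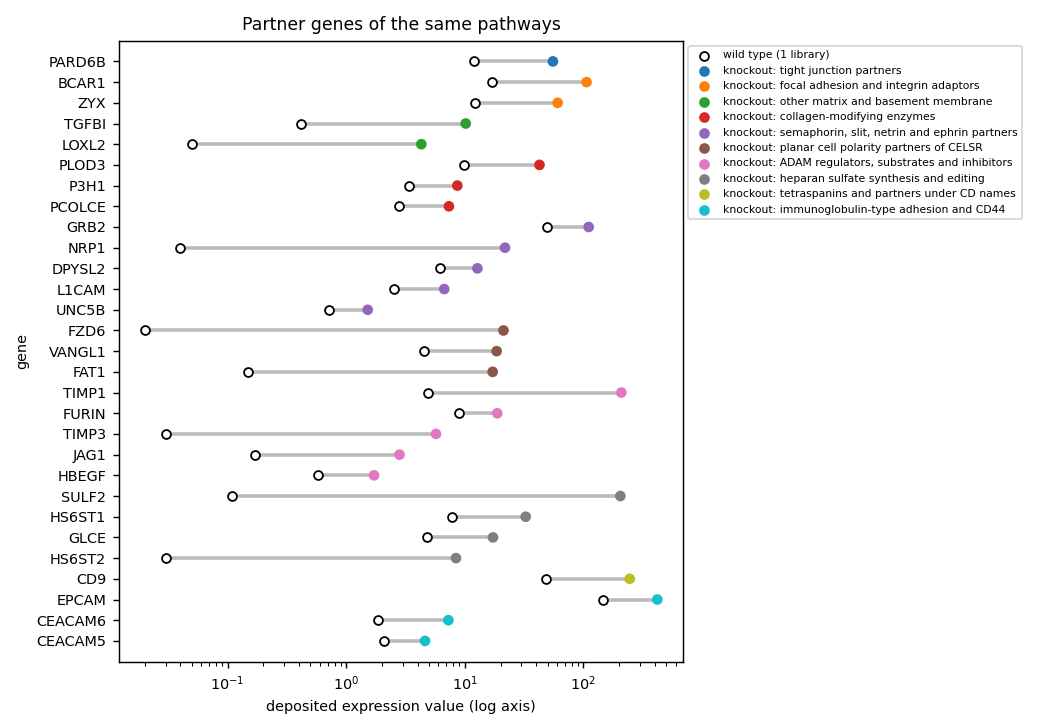
Deposited expression value (log axis) of the 29 partner genes in the wild-type library (open circles) and the knockout library (filled circles, coloured by list). FZD6, NRP1, TIMP3, HS6ST2 and LOXL2 have wild-type values of 0.05 or less, and EPCAM has the highest value in both libraries.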

How the data were processed

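RNA of 1 wild-type and 1 knockout sample was extracted with TRIzol and sequenced from libraries made by BGI protocols, per the labels' protocols. CASAVA 1.4, HISAT2 2.0.4 and the build GRCh38.p12 appear in the submitters' processing notes. For the counting tool, annotation and use of strand, nothing is given in the sources used here. Per the file headers, the authors' table has an expression value (a signal scaled for length, FPKM or TPM not named) and a deposited estimated count per gene and library, and the ratio of the expression values. That ratio was recomputed for 2046 of 2046 genes (tolerance 1e-06). Deposited log2 columns have crossed headers (2046 of 2046 genes) and were not used. Columns not matched to a sample numbered 0.

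The log2 ratio was log2((knockout + 1) / (wild type + 1)), called by size at 2-fold. For the read-count fold, counts of the knockout were divided by those of the wild type and by 1.155. This factor is the median, over 1133 genes of 100 or more wild-type reads, of how many more reads the knockout library has for the same expression value. Its 95% interval is exact and binomial, conditional on the sum of the rounded counts (SciPy 1.17.1), and was tested on simulated data. Without molecular identifiers, reads are not independent molecules. For a count of 0, 3 reads stood in for the fold, and the interval was formed from the 0. No value entered the symbol rule, but the rule and the lists were written with earlier results of these data known. All 44 genes are named, and up to 3 partners per list by level in the knockout library, while a few more were named after their values were seen. Gene positions are from GENCODE 29 and sequences from RefSeq. Alternatives were other pseudocounts, a filter on the mean, centring on the median, read counts, a 4-fold rule, other intervals and other member sets.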

Additional observations from a re-analysis of the deposited data

How the results depend on the processing

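Leaving out the PCDHA genes was chosen after seeing the data. No paired analysis was possible because each genotype has 1 library, and no library could be left out. In every alternative below, roles are given in the order cell-cell adhesion, matrix receptors, matrix, guidance receptors, guidance ligands, proteases and tetraspanins. The genes that reached 2-fold, 32 in the report, numbered 43 with a pseudocount of 0.1, 42 on read counts, 31 in the named families only and 30 without the PCDHA genes. With a pseudocount of 5 they numbered 12 (by role 3, 3, 1, 3, 1, 0 and 1). After centring on the median of all genes they numbered 4 (1, 0, 0, 1, 1, 0 and 1). Under the 4-fold rule they numbered 8 (2, 1, 1, 1, 1, 1 and 1). These falls follow from the stricter rules. A mean over both libraries of 5 or more left 15 of the 44 genes, all of which reached 2-fold. By role they numbered 3, 4, 2, 3 and 1, with 1 tetraspanin and no protease left. The share of the table at 2-fold was 97.1% on read counts, and 21.3% reached 4-fold. For the other pseudocounts, the mean filter and centring, the share of the table is not given here. With a pseudocount of 0.1 and on read counts alike, the roles gave 13, 7, 5, 6, 5, 3 and 2. The median log2 ratio of 1.26 was 1.73 with a pseudocount of 0.1 (by role 1.42, 1.60, 1.76, 1.91, 1.94, 3.06 and 2.37), 0.75 with a pseudocount of 5 (0.44, 0.98, 0.65, 0.90, 0.50, 0.46 and 1.03) and 1.95 on read counts (1.48, 1.60, 2.04, 1.95, 2.09, 4.69 and 2.47). Centring subtracts the median of a table that holds higher genes only, and turned the median to -0.0649, with -0.24 for cell-cell adhesion and -0.0892 for guidance ligands, while the other roles were at 0.0492, 0.0451, 0.0294, 0.0831 and 0.46. With a mean of 5 or more, the medians were 1.73 for matrix, 3.60 for the 1 guidance ligand left and 1.14 for the 1 tetraspanin left. The 35 genes with an interval above 2 were 41 without scaling of the counts and 29 with 99% intervals. The shares of the table under these settings are not given here either. For single genes, 20 fell short of 2-fold with a pseudocount of 5, and 11 reached it with a pseudocount of 0.1. Depth limits PCDH10, ADAMTS1, ADAMTS9 and CDH18, each with under 10 wild-type reads.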

Other observations

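The genes of the table were counted by family against the protein-coding genes of the RefSeq annotation. The symbol rule matched 336 of these genes, of which 44 (13.1%) were in the table, against 2012 of all 20056 protein-coding genes (10.0%). The others may be silent, alike or lower, and are not analysed here. Eph receptors gave 4 of 14, syndecans and glypicans 3 of 10, semaphorins 4 of 20 and plexins 2 of 9. Integrins gave 4 of 26 and nectins 1 of 4. Near the share of all genes were cadherins with 11 of 92 (11.96%), collagens with 5 of 44 (11.4%), ADAMTS genes with 3 of 24 (12.5%), ephrins with 1 of 9 (11.1%) and tetraspanins with 2 of 22 (9.09%). Claudins gave 1 of 24, ADAM genes 1 of 20 and laminins 0 of 12. Within the clustered protocadherins, which bind their own kind on neighbouring cells, the alpha cluster gave 5 of 15 genes, while the neighbouring beta and gamma clusters gave 0 of 16 and 0 of 22. Of the 44 genes, 5 (11.4%) lie on chromosome X, namely COL4A5, COL4A6, EFNB1, GPC4 and PLXNA3, against 6.81% of the 2013 genes of the table with a position. These shares are descriptions, and no test was made of them.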
